A study of Homo sapiens with 7 samples.

Results

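Integrins are the heterodimeric receptors, each of an alpha and a beta chain, by which cells hold on to the matrix around them. The alpha chain largely sets the ligand, while talins and kindlins bind the beta tail inside the cell, switch the receptor on and recruit the plaque of adaptors, kinases and actin linkers called a focal adhesion. Proximal tubule cells stand on a basement membrane that they grip with laminin-binding and collagen-binding integrins, and cultured or injured tubule cells are known to use fibronectin-binding and vitronectin-binding receptors as well. The 38 genes described here were taken by name from the deposited table of 33694 genes: 18 integrin subunits and 20 adaptors, kinases and caveolins. All 38 were found, 37 had at least 1 count, and 35 passed the low-count filter and were tested.

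The cells were HK-2, an immortalised line of human proximal tubule epithelium labelled WT in the control group and GLUT2-KD in the other. Both groups received 50 nM siRNA by lipid transfection and were lysed 96 h later: 4 libraries carried a scrambled sequence (replicates 1 to 4) and 3 carried siGLUT2, an siRNA against GLUT2, the glucose transporter encoded by SLC2A2 (replicates 2 to 4). Knockdown is transient and comes from a single cell line, and the sequence of the siRNA is not given in the sources used here. Libraries were made by a 3' digital mRNA-seq service, which counts transcript ends, so CPM (counts scaled to library size with TMM factors) is not divided by gene length and is compared here between libraries of 1 gene, not between genes. Changes are given on the log2 scale, siGLUT2 relative to scrambled, as the estimate ± SE with its 95% interval in brackets. Unless another analysis is named beside it, an adjusted p comes from the quasi-likelihood test of edgeR over all 7 libraries, corrected by Benjamini-Hochberg across 12404 tested genes; alternative analyses were corrected over the genes tested in each. A gene "rose" or "fell" where that adjusted p was below 0.05. The labels call the libraries biological replicates without saying what separates them, so p-values measure only the spread between these libraries.

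Library totals lay between 5654957 and 8455963 counts. SLC2A2 had 13, 13, 7 and 17 counts in scrambled replicates 1 to 4 and 0 in all siGLUT2 libraries, where 3 counts over the group would be 0.156 CPM (adjusted p = 0.0085); such floors cover counting error only. Of 11 proximal tubule markers only 3 (PAX8, GGT1 and SLC5A2) had a mean above 1 CPM and LRP2, encoding megalin, was at 0 in every library. Summed over each list, fibroblast and pericyte markers reached 15.5 to 23.2 CPM in scrambled and 22.8 to 31.5 CPM in siGLUT2 libraries, with 4 of 7 at a mean above 1 CPM and COL3A1 at 0. Leukocyte markers summed to at most 3.62 CPM in any library, with 5 of 8 at 0, and endothelial markers to at most 0.434 CPM, with 5 of 6 at 0. The siGLUT2 libraries held 7.04% to 7.56% mitochondrially encoded counts against 4.91% to 5.53%, and 13433 to 13891 detected genes against 14844 to 15036. Without the mitochondrial genes 14 members were called, as many as with them; the part of the lower number of detected genes in the results was not tested. In bulk RNA a lower level per cell and fewer cells that express a gene cannot be told apart.

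After siGLUT2, 8 of the 35 tested members rose and 6 fell. The alpha 5, beta 5 and alpha 2 integrin chains rose, beta 4 and beta 6 fell, and the chains they pair with (beta 1, alpha V and alpha 6) did not pass the test. In the plaque, talin 1, kindlin 2, vinculin, zyxin and focal adhesion kinase rose, while alpha-actinin 4 and PINCH1 fell. Both caveolins, which are not plaque proteins, fell as well. The members that rose were 22.9% of those tested, where 13.9% of all tested genes rose, and those that fell were 17.1%, where 14.4% of all genes fell. In either direction 40.0% of members and 28.3% of all genes passed. Levels did not overlap between the groups for 14 members (40.0%), against 35.1% of all genes, and 4 members (11.4%) changed at least 2-fold and passed the test, against 8.3% of all genes. The median log2 change was 0.05 over the members and -0.0029 over all genes. The members were chosen with earlier results of these data known, so these shares are a description. Of the 14 members called, 10 kept their call in all 22 alternative analyses; ITGB6, TLN1, ZYX and ACTN4 did not.

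**Figure D1:**
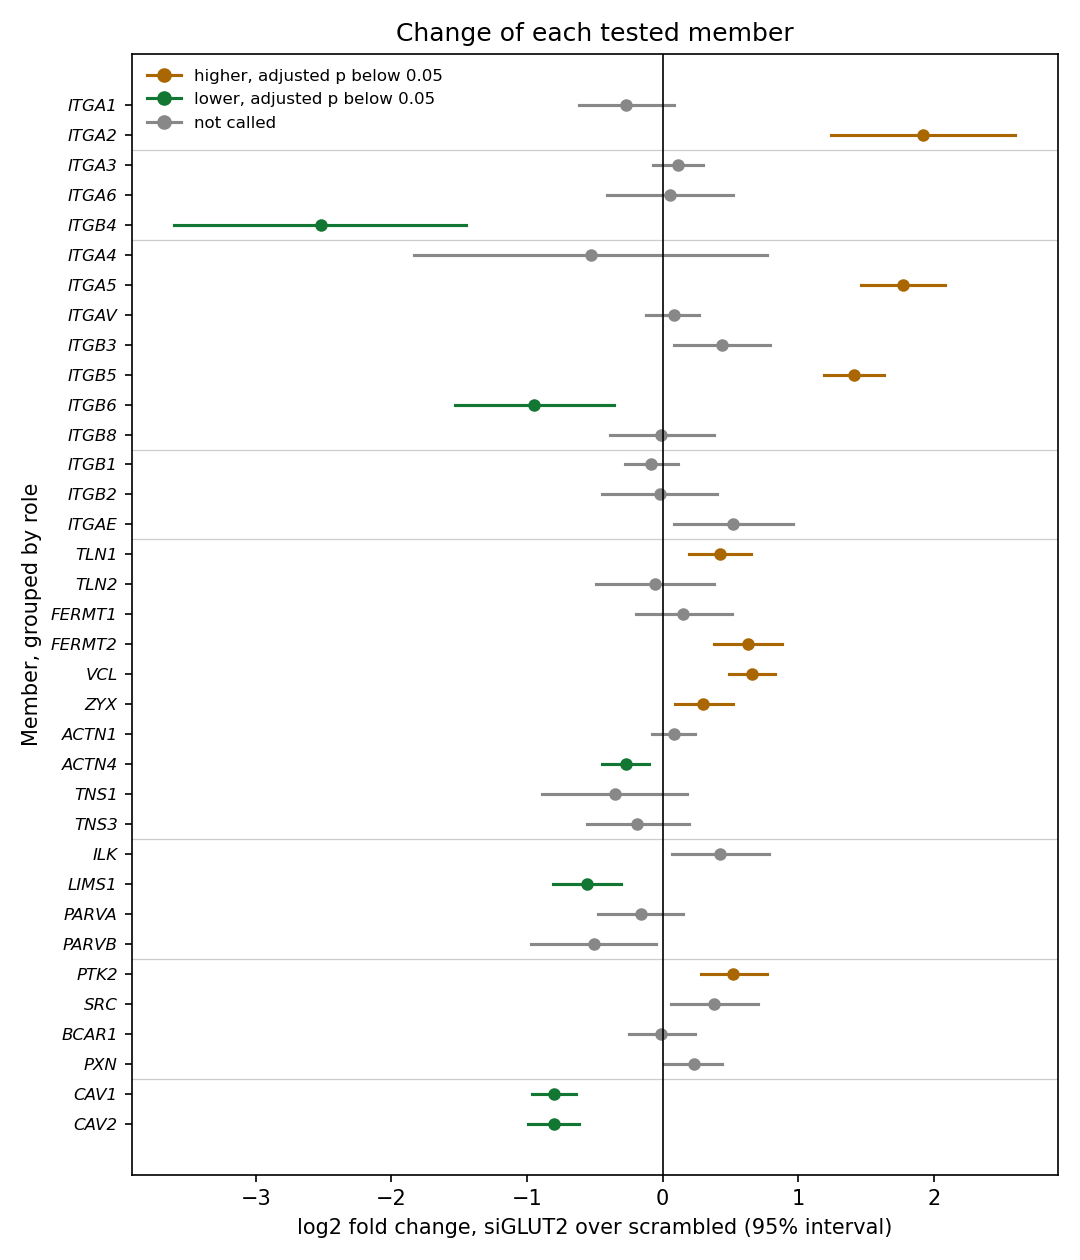
Log2 fold change (siGLUT2 over scrambled) of the 35 tested members on the x axis, with 95% intervals as lines; members are ordered by role and thin grey lines separate the roles. ITGA2, ITGA5 and ITGB5 stand at 1.92, 1.77 and 1.41, ITGB4 at -2.52, and CAV1 and CAV2 both at -0.80.

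Among the fibronectin and RGD-binding chains, ITGA5, the alpha chain of the main fibronectin receptor (alpha 5 beta 1), had the smallest adjusted p of the alpha chains. ITGA5 (ENSG00000161638, GRCh38 chromosome 12, 54395261 to 54419460, minus strand) was at 39.0, 27.8, 43.3 and 36.0 CPM in scrambled libraries 1 to 4 and at 103.9, 126.8 and 142.8 CPM in siGLUT2 libraries 2 to 4. Every siGLUT2 library was more than 2-fold above the highest scrambled library. The rise was 3.41-fold (1.77 ± 0.15 [1.46 to 2.08], adjusted p = 1.22e-08). Its partner ITGB1, the beta chain shared by most matrix receptors, was at 332, 359, 387 and 422 CPM and at 385, 354 and 319 CPM. The groups overlapped, and the interval of the difference ran from -0.28 to 0.11 (adjusted p = 0.525). The mRNA of alpha 5 thus rose without a called change in that of beta 1.

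The promoter window of ITGA5 is shown because this was the member alpha chain with the clearest rise. It runs from 250 bases before to 20 bases after the start that RefSeq lists (GRCh38.p14, chr12:54419247-54419516, minus strand). Capitals mark 3 motifs searched on both strands: an AP-1 motif (TGANTCA), a TEAD motif (GGAATG) and a GC box (GGGCGG).
ITGA5: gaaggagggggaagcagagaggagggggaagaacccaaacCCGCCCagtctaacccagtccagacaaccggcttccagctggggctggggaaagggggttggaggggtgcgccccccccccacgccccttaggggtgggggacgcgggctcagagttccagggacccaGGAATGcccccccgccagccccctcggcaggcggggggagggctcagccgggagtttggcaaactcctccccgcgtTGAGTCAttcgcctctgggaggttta
The AP-1 motif spans the listed start, from base -6 to base 1, and is in 7.13% of all 35116 promoter windows of this length. The TEAD motif lies from -82 to -77 and is in 12.9% of windows, and the GC box, here on the opposite strand from -210 to -205, is in 43.7%. Among the 29 members with an entry in the RefSeq table, the first-listed window held the AP-1 motif in 3, the TEAD motif in 4 and the GC box in 18. The shares of all windows include later starts of the same gene, so these counts are not set against them. A match describes letters only, and no binding was measured.

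ITGB5, the beta chain of the vitronectin receptor alpha V beta 5 (ENSG00000082781, chromosome 3, 124761948 to 124901418, minus strand), was at 76.7, 87.3, 84.2 and 69.7 CPM in scrambled and at 220.3, 209.7 and 205.6 CPM in siGLUT2 libraries. The siGLUT2 values lay within 1.07-fold of each other and far above all scrambled values. The rise was 2.66-fold (1.41 ± 0.11 [1.19 to 1.63], adjusted p = 1.7e-09). ITGB6, the beta chain of alpha V beta 6, an epithelial receptor known for activating latent TGF-beta, went the other way. It was at 36.2, 23.9, 22.5 and 23.3 CPM in scrambled and at 6.82, 18.3 and 15.8 CPM in siGLUT2 libraries (-0.95 ± 0.28 [-1.53 to -0.36], adjusted p = 0.0141). The groups did not overlap, but scrambled replicate 1 was high and siGLUT2 replicate 2 was low. Without scrambled replicate 1 the change was -0.76 with an adjusted p of 0.085. With replicate number as a block over the 6 libraries that share numbers, the change was -0.85 with an adjusted p of 0.0647.

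The common partner of these beta chains, ITGAV, did not pass the test. ITGAV was at 232 to 278 CPM in scrambled and at 273, 288 and 236 CPM in siGLUT2 libraries, with an interval from -0.12 to 0.27 (adjusted p = 0.597). ITGB8, of alpha V beta 8, another TGF-beta activating receptor, lay at 28.9 to 40.7 CPM and 29.4 to 44.2 CPM, with an interval from -0.39 to 0.38. ITGB3, the beta chain of alpha V beta 3, was at 36.4, 44.1, 41.6 and 54.7 CPM and at 56.5, 48.4 and 74.3 CPM (0.44 ± 0.17 [0.08 to 0.79], adjusted p = 0.0605). That value was near the threshold, and ITGB3 stayed not called in 17 of 22 alternative analyses, with an adjusted p of up to 0.317. It passed with limma-voom (adjusted p = 0.0475) and in the fit without a low-count filter (adjusted p = 0.0404). It also passed without scrambled replicate 4, siGLUT2 replicate 2 or siGLUT2 replicate 3 (adjusted p = 0.0355, 0.0465 and 0.0267). ITGA4, an alpha chain best known from leukocytes, was low and scattered, at 2.52 to 8.64 CPM in scrambled and 1.30 to 6.99 CPM in siGLUT2 libraries (adjusted p = 0.575).

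Of the collagen-binding alpha chains, which all pair with beta 1, ITGA2 rose and ITGA1 did not pass. ITGA2 (chromosome 5, 52989326 to 53094779, plus strand) was at 4.91, 4.56, 2.66 and 5.12 CPM in scrambled and at 13.5, 16.9 and 18.4 CPM in siGLUT2 libraries. These are 21 to 38 counts against 79 to 118, with no overlap (3.78-fold, 1.92 ± 0.33 [1.24 to 2.60], adjusted p = 0.000113). ITGA1, its neighbour on the same strand, was at 66.3, 56.9, 66.2 and 72.3 CPM and at 46.0, 42.6 and 73.8 CPM. In siGLUT2 replicate 4 it lay above every scrambled library, while the other siGLUT2 libraries lay below all of them (-0.27 ± 0.17, adjusted p = 0.255); without that library the change was -0.56 with an adjusted p of 0.00758. ITGA10 was counted 6, 0, 0 and 1 times in scrambled and 0 times in siGLUT2 libraries and was not tested. ITGA11 had 0 counts in all 7 libraries, where 3 counts over the series would be 0.0621 CPM.

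Among the laminin-binding chains, ITGB4 fell. ITGB4 is the beta chain of alpha 6 beta 4, the receptor of hemidesmosomes, which tie keratin filaments to laminin. It was at 5.61, 11.3, 5.19 and 8.11 CPM in scrambled (40, 94, 41 and 46 counts) and at 1.36, 1.58 and 0.938 CPM in siGLUT2 libraries (8, 11 and 6 counts). All siGLUT2 values were below all scrambled values (-2.52 ± 0.52 [-3.60 to -1.45], adjusted p = 0.000788), at few counts. Its partner ITGA6 was at 29.4, 27.3, 30.1 and 31.9 CPM and at 39.2, 35.9 and 17.4 CPM. The siGLUT2 libraries lay on either side of the scrambled range (0.05 ± 0.22 [-0.41 to 0.52], adjusted p = 0.888). ITGA3, the alpha chain of the laminin receptor alpha 3 beta 1, was at 262 to 296 CPM in scrambled and 283 to 329 CPM in siGLUT2 libraries, with an interval from -0.07 to 0.30 (adjusted p = 0.363). ITGA7 was counted 16, 6, 17 and 3 times and 0, 9 and 5 times and was not tested.

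ITGB2 and ITGAE, chains best known from leukocytes, were also counted in this line. ITGB2 was at 21.9 to 34.6 CPM in scrambled and 23.0 to 33.4 CPM in siGLUT2 libraries (-0.02 ± 0.21, adjusted p = 0.951). Of the alpha chains that pair with beta 2, ITGAL had 0 counts in every library. ITGAM had 0, 3, 2 and 0 counts in scrambled and 5, 16 and 0 in siGLUT2 libraries, and ITGAX had 9 to 22 and 13 to 41 counts (adjusted p = 0.267). Of the 8 leukocyte markers, ITGAM among them, 0 had a mean above 1 CPM over the 7 libraries. ITGAE was at 18.2 to 25.2 CPM in scrambled and at 24.9, 43.8 and 29.6 CPM in siGLUT2 libraries (0.52 ± 0.21, adjusted p = 0.0714, and 0.015 without siGLUT2 replicate 2). Summed over the 18 subunits, integrins took 0.12% to 0.139% of all counts in scrambled and 0.151% to 0.154% in siGLUT2 libraries, while all 38 members took 0.548% to 0.579% and 0.542% to 0.587%.

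**Figure D2:**
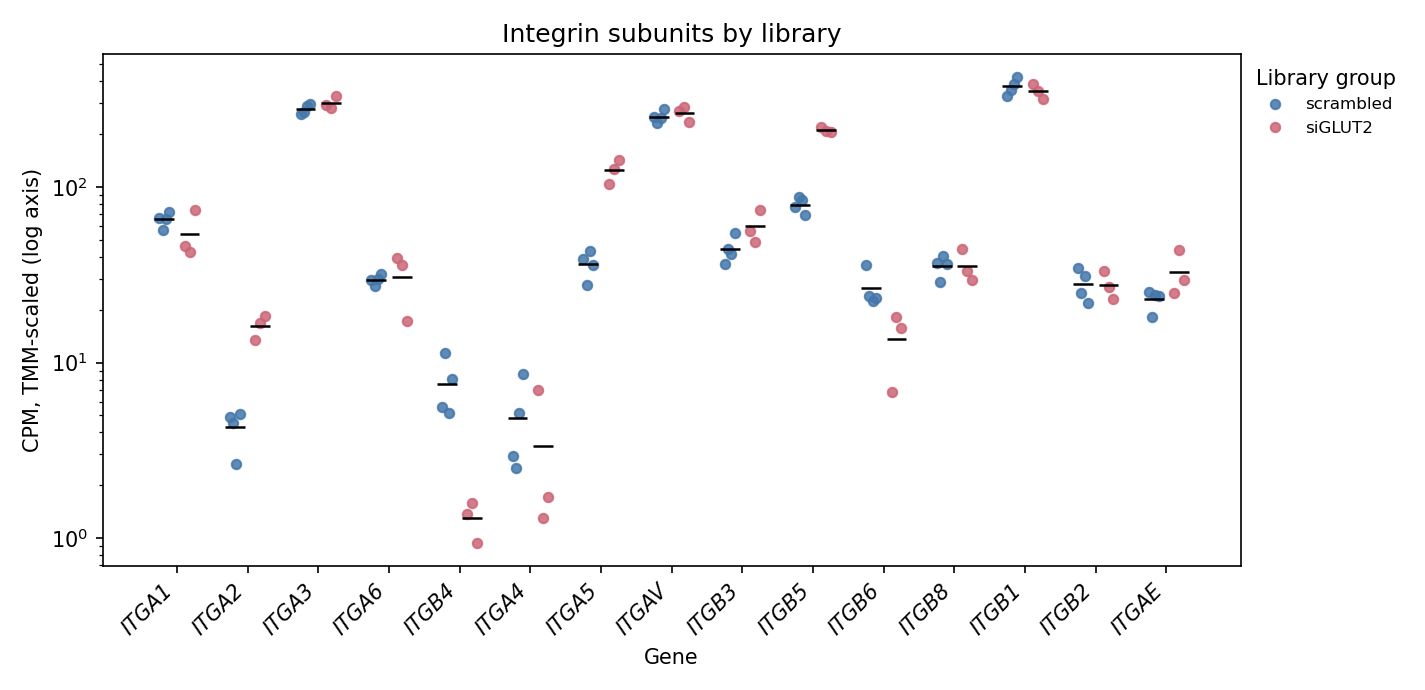
TMM-scaled CPM (log axis) of the 15 tested integrin subunits in each library; points are the 4 scrambled and 3 siGLUT2 libraries and black bars are group means. ITGA2, ITGA5 and ITGB5 lie higher and ITGB4 and ITGB6 lower in all siGLUT2 libraries, while ITGB1 and ITGAV overlap between groups.

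Proteins that switch integrins on or join them to actin were the next role, and 4 of 10 rose and 1 fell. In either direction that is 50%, against 28.3% of all tested genes. TLN1, talin 1, which binds beta tails and pulls on actin, was at 133, 149.6, 132 and 183 CPM in scrambled and at 207, 189 and 204 CPM in siGLUT2 libraries. The lowest siGLUT2 value was just above scrambled replicate 4 (0.42 ± 0.11 [0.19 to 0.65], adjusted p = 0.00618), and against a minimum change of 1.2-fold the adjusted p was 0.109. FERMT2, kindlin 2, the co-activator that works beside talin, was at 78.1, 67.6, 78.0 and 62.4 CPM and at 111, 104 and 118 CPM. The groups were well apart (1.55-fold, 0.63 ± 0.12 [0.38 to 0.88], adjusted p = 0.000379). VCL, vinculin, which binds stretched talin and strengthens the link to actin, rose the most clearly of the linkers. It was at 270.2, 241, 266 and 265 CPM in scrambled and at 396, 428 and 409 CPM in siGLUT2 libraries (1.58-fold, 0.66 ± 0.08 [0.49 to 0.83], adjusted p = 2.63e-06). Its last exons share 1109 bases with AP3M1 on the opposite strand, so with an unknown strand setting the reads of the 2 genes cannot be told apart there.

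The paralogs of talin 1 and kindlin 2 did not pass. TLN2 was at 20.9 to 35.0 CPM in scrambled and 21.7 to 30.6 CPM in siGLUT2 libraries, with an interval from -0.49 to 0.38 (adjusted p = 0.869). Its last exons share 721 bases with the antisense gene AC103740.1, which had 156 counts over all libraries. FERMT1, kindlin 1, was at 33.9 to 42.2 CPM and 35.6 to 50.4 CPM, with an interval from -0.20 to 0.51 (adjusted p = 0.55). Whether the paralogs differ from each other in their response was not tested. ZYX, zyxin, a plaque protein that gathers where adhesions are under force, was at 183, 194, 189 and 164 CPM and at 193, 224 and 258 CPM. The groups overlapped (0.30 ± 0.10 [0.09 to 0.52], adjusted p = 0.0323). The call was lost when any of 5 libraries was left out. The change was then 0.30, 0.32 or 0.26 without scrambled replicate 1, 3 or 4 (adjusted p = 0.0756, 0.0521 and 0.116), and 0.30 or 0.19 without siGLUT2 replicate 3 or 4 (adjusted p = 0.0727 and 0.183). The ZYX call was also lost with the replicate block (adjusted p = 0.114) and against a minimum change of 1.2-fold (adjusted p = 0.376).

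The alpha-actinins, which cross-link actin at adhesions and along stress fibres, include 1 member that fell. ACTN4 was at 957, 855, 882 and 889 CPM in scrambled and at 653, 728 and 841 CPM in siGLUT2 libraries, with siGLUT2 replicate 4 just below the lowest scrambled value (-0.27 ± 0.09 [-0.45 to -0.10], adjusted p = 0.0191). This call was lost, at a similar size of change, without scrambled replicate 1 or 4 (-0.24 and -0.27, adjusted p = 0.0905 and 0.0527) or siGLUT2 replicate 3 (-0.26, adjusted p = 0.0688). The ACTN4 call was also lost with the replicate block (-0.25, adjusted p = 0.0705) and against a minimum change of 1.2-fold (adjusted p = 0.456). The last exons of ACTN4 share 868 bases with CAPN12 on the opposite strand, which had 52 counts over all libraries. ACTN1 was at 878 to 957 CPM and 928 to 1075 CPM, with an interval from -0.08 to 0.24 (adjusted p = 0.467); the difference between the 2 paralogs was not tested. The tensins, which bind beta tails in the mature, fibrillar kind of adhesion, were not called. TNS1 was at 14.3 to 23.1 CPM and 11.4 to 14.8 CPM (adjusted p = 0.331), and TNS3 at 32.0 to 37.6 CPM and 26.1 to 36.6 CPM (adjusted p = 0.484).

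Among kinases and scaffolds, PTK2, focal adhesion kinase, was the member that rose. PTK2 was at 74.7, 80.5, 84.7 and 68.1 CPM in scrambled and at 111, 104 and 118 CPM in siGLUT2 libraries, without overlap (1.44-fold, 0.52 ± 0.12 [0.28 to 0.77], adjusted p = 0.00172). SRC, the kinase that acts with it, also did not overlap, at 36.6, 42.0, 34.5 and 43.9 CPM and at 47.8, 53.6 and 51.4 CPM, but did not pass (0.38 ± 0.15 [0.06 to 0.70], adjusted p = 0.0711). PXN, paxillin, a scaffold on which both kinases meet, was at 189, 177, 169 and 177 CPM and at 172, 233 and 219.5 CPM. One siGLUT2 library lay inside the scrambled range and the other two above it (0.23 ± 0.10, adjusted p = 0.112); without siGLUT2 replicate 2 the change was 0.35 with an adjusted p of 0.00424. Its last exons share 918 bases with the antisense gene PXN-AS1, which had 281 counts over all libraries. With an unknown strand setting the reads of PXN and PXN-AS1 cannot be told apart there. BCAR1, the Src substrate p130Cas, was at 92.2 to 126 CPM and 107 to 117 CPM, with an interval from -0.25 to 0.24 (adjusted p = 0.978).

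The ILK, PINCH and parvin complex joins kindlin-bound beta tails to actin, and of its 4 members 1 passed (25%, against 28.3% of all genes). LIMS1, which encodes the adaptor PINCH1, fell from 192, 218, 181 and 187 CPM to 156, 138 and 104 CPM, without overlap (-0.56 ± 0.12 [-0.81 to -0.31], adjusted p = 0.00115). Near-identical copies of part of LIMS1, named LIMS3 and LIMS4, had 0 counts, and reads split between them would be lost from this value. ILK, the pseudokinase at the centre of the complex, was at 47.8, 45.7, 73.2 and 51.5 CPM and at 57.5, 72.0 and 90.1 CPM. The groups overlapped (0.42 ± 0.17 [0.07 to 0.78], adjusted p = 0.071). ILK passed without scrambled replicate 3 (0.61, adjusted p = 0.015), without siGLUT2 replicate 2 (0.57, adjusted p = 0.00991) and without a low-count filter (0.42, adjusted p = 0.0266). It stayed not called in 19 of 22 alternative analyses, with an adjusted p of up to 0.324. The last exons of ILK share 413 bases with TAF10 on the opposite strand, which had 5773 counts over all libraries. With an unknown strand setting the reads of ILK and TAF10 cannot be told apart there. PARVB was at 24.5 to 41.9 CPM and 17.7 to 31.6 CPM (-0.51 ± 0.22, adjusted p = 0.0901, and 0.0485 without scrambled replicate 3 or 0.0128 without siGLUT2 replicate 4), and PARVA at 45.1 to 55.0 CPM and 40.9 to 50.5 CPM (adjusted p = 0.469).

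**Figure D3:**
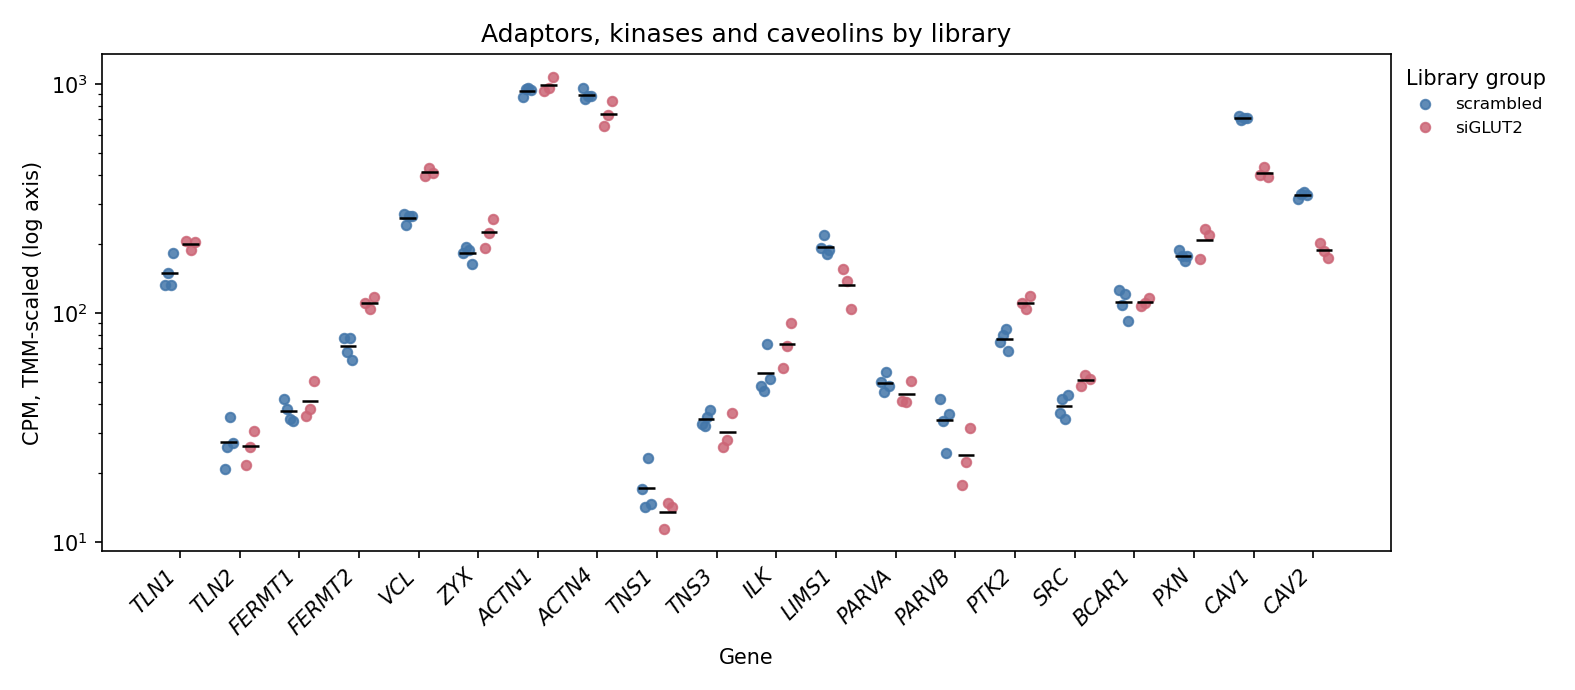
TMM-scaled CPM (log axis) of the 20 adaptors, kinases and caveolins in each library; points are libraries and black bars are group means. VCL, FERMT2 and PTK2 lie higher and CAV1, CAV2 and LIMS1 lower in every siGLUT2 library, while ACTN1 and BCAR1 overlap.

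The caveolins, coat proteins of the small membrane pits called caveolae, which lie near adhesions and influence integrin uptake, fell together. CAV1 (ENSG00000105974, chromosome 7, 116524785 to 116561184, plus strand) was at 726, 694, 711 and 710.1 CPM in scrambled and at 399, 434 and 393 CPM in siGLUT2 libraries. CAV2, its neighbour upstream on the same strand, was at 314, 330.0, 338 and 326 CPM and at 203, 186 and 174 CPM. In both genes every siGLUT2 library was far below every scrambled library, and the scrambled values lay within 1.08-fold of each other. CAV1 changed by -0.80 ± 0.08 ([-0.96 to -0.64], adjusted p = 8.9e-08) and CAV2 by -0.80 ± 0.09 ([-0.99 to -0.62], adjusted p = 5.27e-07), to 0.575 and 0.574 of the scrambled level.

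The promoter windows of this pair are shown because the genes lie next to each other and moved alike. Each is the first that RefSeq lists (of 3 for CAV1 and 2 for CAV2), from 250 bases before to 20 after the start, on the plus strand of GRCh38.p14, at chr7:116524759-116525028 and chr7:116499488-116499757. Capitals mark GC boxes on either strand; neither window held the AP-1 or the TEAD motif.
CAV1: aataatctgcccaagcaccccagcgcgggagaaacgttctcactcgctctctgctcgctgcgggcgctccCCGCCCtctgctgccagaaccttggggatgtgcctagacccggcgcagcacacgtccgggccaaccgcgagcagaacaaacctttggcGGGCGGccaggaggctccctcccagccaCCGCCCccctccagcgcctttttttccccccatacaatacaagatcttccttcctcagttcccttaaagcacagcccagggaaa
CAV2: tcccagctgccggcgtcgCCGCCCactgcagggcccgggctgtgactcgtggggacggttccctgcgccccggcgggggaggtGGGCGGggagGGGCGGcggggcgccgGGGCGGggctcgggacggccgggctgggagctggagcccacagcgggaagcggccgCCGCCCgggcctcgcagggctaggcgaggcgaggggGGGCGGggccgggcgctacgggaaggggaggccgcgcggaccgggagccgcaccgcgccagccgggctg
The CAV1 window held 3 GC boxes and 62.6% G or C, and the CAV2 window 6 GC boxes and 83.3%. Which start these cells used was not measured, because the reads mark transcript ends.

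At the other end of the transcripts, an earlier scan of these same fold changes had picked 2 words of 7 bases, GACCTTA and ACCTTAA, whose presence in a 3' UTR went with lower levels. In the longest annotated 3' UTR (GENCODE 29) either word stood in 15.4% of the 11617 tested genes scanned and in 5 of the 35 tested members, which is 14.3%. Of these 5, ITGA3, ITGA6, ITGAV and ITGB8 were not called and CAV2 fell. ITGA7, not tested, held 1 as well. The 29-base stretches around the words are shown, with the word in capitals, because they say which members carry it.
ITGA3, chr17:50089448-50089476, plus strand: ccagcgctgtgGACCTTAcaacgccgagt
ITGA6, chr2:172505742-172505770, plus strand: ggaaatcttaaACCTTAAgatactaagga
ITGA7, chr12:55684624-55684652, minus strand: ccctctcatctGACCTTAgtttgctgcca
ITGAV, chr2:186677680-186677708, plus strand: gtccaaatttgGACCTTAgcaatcatgtc
ITGB8, chr7:20410525-20410553, plus strand: gaacagatacaACCTTAAtcttaaaagat
CAV2, chr7:116508054-116508082, plus strand: gcataatcattACCTTAAagcatcaccac
CAV1, which fell as much as CAV2, held neither word, nor did ITGB4, ITGB6, LIMS1 or ACTN4. Over all scanned genes, 380 of the 1789 with a word fell and 195 rose, against 1336 and 1484 of the 9828 without. Of the related genes named below that fell, PPFIA1, VPS35 and RAB21 held both words, while TGFBI, SDC4, RAB11FIP1 and DNM2 held neither. CLTC, which rose, held GACCTTA, and FN1, COL6A1, FLNA and PDLIM7, which also rose, held neither word. The words were chosen on these fold changes, so the counts are a description. The length of the 3' UTR was not taken into account in them. The part of a word in the level of CAV2 or of any of these genes was not tested.

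Beyond the 38 members, 5 lists of related genes held 121 tested genes, of which 24 rose and 21 fell (37.2%, against 28.3% of all tested genes). Like the members, the lists were chosen with earlier results of these data known, so their shares are a description. Of 29 matrix ligands of integrins 12 rose and 5 fell (58.6%), with a median of 0.45. FN1, fibronectin, the ligand of alpha 5 beta 1, was at 364, 365, 337 and 415 CPM in scrambled and at 1149, 1077 and 1051 CPM in siGLUT2 libraries (2.95-fold, 1.56 ± 0.08, adjusted p = 9.45e-12). The siGLUT2 libraries all lay more than 2-fold above the scrambled ones. The summed fibroblast and pericyte markers were also higher on average in the siGLUT2 libraries, as given above. Of those markers COL1A1, which is on both lists, had 54, 92, 72 and 56 counts in scrambled and 97, 99 and 121 in siGLUT2 libraries. Ranges overlapped for PDGFRB (6 to 18 and 2 to 16 counts), RGS5 (35 to 66 and 32 to 46) and ACTA2 (4 to 18 and 2 to 26). PDGFRA and DCN had at most 1 count in any library. The part of the marker genes in these changes was not tested. COL6A1, a collagen VI chain, rose (0.93 ± 0.09, adjusted p = 3.94e-08), and TGFBI, an RGD-containing matrix protein, fell from 516 to 596 CPM to 287 to 347 CPM (-0.84 ± 0.09, adjusted p = 2.91e-07).

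**Figure D4:**
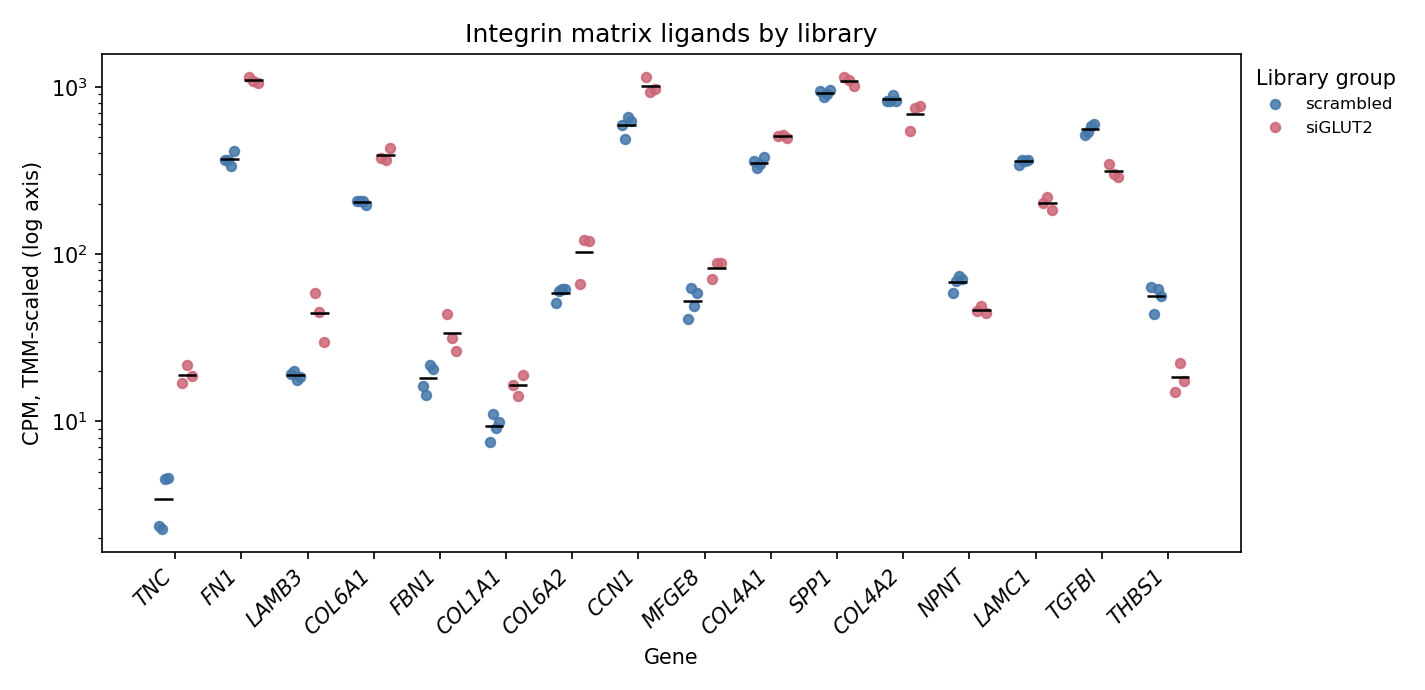
TMM-scaled CPM (log axis) of 16 of the 17 matrix ligands of integrins that passed the test, ordered by fold change; points are libraries and black bars are group means. FN1 lies between 1051 and 1149 CPM in siGLUT2 and between 337 and 415 CPM in scrambled libraries.

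Among 47 other focal adhesion proteins 7 rose and 6 fell (27.7%, close to the share of all genes), with a median of 0.01. The falls included PPFIA1, liprin alpha 1, from 69.5 to 81.4 CPM to 36.1 to 38.4 CPM (-0.99 ± 0.14, adjusted p = 1.22e-05). SDC4, syndecan 4, a proteoglycan co-receptor for fibronectin, fell from 234 to 263 CPM to 107 to 159 CPM (-0.81 ± 0.12, adjusted p = 1.56e-05). The rises included FLNA, filamin A, an actin cross-linker that binds beta tails, from 1383 to 1536 CPM to 1895 to 2051 CPM (0.40 ± 0.07, adjusted p = 0.00015), and PDLIM7 (0.55 ± 0.11, adjusted p = 0.000812). Of 5 tested integrin subunits and paralogs outside the members 0 passed by edgeR (1 at an unadjusted p below 0.05, and 1 by DESeq2 after adjustment), with TNS2 at 24.2 to 37.0 CPM and LIMS2 at 3.75 to 8.87 CPM over all libraries.

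Of 19 tested genes of integrin traffic, which carry receptors to and from the surface, 1 rose and 4 fell (26.3%, near the share of all genes). The 1 that rose, CLTC, the clathrin heavy chain, was singled out after its values were seen: it changed by 0.24 ± 0.08 (adjusted p = 0.026) and lost its call in 7 of the 22 alternative analyses. VPS35, a core subunit of the retromer that returns receptors from endosomes, was at 359, 373, 314 and 357 CPM in scrambled and at 114, 106 and 122 CPM in siGLUT2 libraries (-1.62 ± 0.10, adjusted p = 6e-11). RAB11FIP1, which couples integrins to recycling endosomes, changed by -1.23 ± 0.10 (adjusted p = 1.17e-08), DNM2, a dynamin, by -0.92 ± 0.12 (adjusted p = 5.5e-06), and RAB21, an endosomal GTPase that binds alpha tails, by -0.50 ± 0.15 (adjusted p = 0.0131).

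Within groups, members varied somewhat more among the siGLUT2 libraries. This spread was not computed over all genes, so whether it is particular to the members was not tested. Over the 30 members with a mean of at least 20 CPM in each group, the median ratio of the highest to the lowest library was 1.31 in siGLUT2 and 1.23 in scrambled replicates 2 to 4, and the ratio was larger in siGLUT2 for 21 of the 30. ITGA6 had a ratio of 2.26 in siGLUT2, PARVB 1.78, ITGAE 1.76 and ITGA1 1.73. VCL, ITGB5, TLN1 and BCAR1 stayed at 1.09 or below.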

How the data were processed

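The authors deposited raw counts per Ensembl gene for 7 libraries of HK-2 cells, made from 125 ng total RNA and read single-end for 100 cycles, per the labels' protocols. Per the submitters' processing notes, the tools included STAR, HTSeq and edgeR and the build was hg38. Tool versions, annotation release, strand setting and any molecular identifiers: not given in the sources used here. Of 33694 rows, 16136 were 0 in every library, and 0 value columns lacked a sample. Symbols were matched by Ensembl ID (32807 in the name table); positions come from GENCODE 29 (33132 IDs).

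The comparison of siGLUT2 with scrambled was fitted over all 7 libraries with edgeR 4.0.16 under R 4.3.3. Genes were kept by filterByExpr at a minimum count of 10 and total of 15, then scaled with TMM, and tested with robust glmQLFit and glmQLFTest and Benjamini-Hochberg adjustment. SE is the absolute log2 change over the square root of F; intervals use the fit's degrees of freedom. Alternatives used DESeq2 1.42.0, limma 3.58.1, other scalings, filters and thresholds, thinning, a replicate block and each library left out. The scripts were tested on simulated data.

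The members and lists were chosen with earlier results of these data known. Named are SLC2A2, every member and up to 4 genes per related list with the smallest adjusted p (2 with the highest CPM where none passed). Outside that rule, ITGAL, ITGAM and ITGAX are named as chains that pair with beta 2, and CLTC after its values were seen. Marker genes and genes that overlap members are named where they are described. The genes of 1 related list and 1 matrix ligand are not reported here. Replicate numbers were checked for pairing by correlating deviations from group means over all tested genes, and same-numbered libraries showed little correlation. Whether they share a batch was not tested. Promoters are RefSeq's (GRCh38.p14); 3' UTRs are the longest annotated of at least 50 bases.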

Additional observations from a re-analysis of the deposited data

Results flagged for a closer look

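ITGB6 in scrambled replicate 1 stood apart from the other scrambled libraries: 36.2 CPM, where the nearest of the others was at 23.9 CPM, a gap of 0.901 of the group's whole range, above Dixon's 95% critical value for 4 libraries. It was the 1 such value among 36 genes looked at, the tested members and SLC2A2, and chance flags about 1 in 20 groups. Without that library ITGB6 changed by -0.76 with an adjusted p of 0.085 (edgeR).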

How the results depend on the processing

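The count of members called lay between 11 and 18 over the 22 alternative analyses, and 0 of the called members changed sign in any of them. Of 21 members not called, 15 stayed so throughout, and 6 of these changed sign somewhere; the other 6 (ITGA1, ITGB3, ITGAE, ILK, PARVB and PXN) passed in at least 1 alternative. Leaving out 1 library at a time gave 11 to 18 members (7 to 12 higher, 4 to 8 lower), 4 to 7 integrin subunits, 7 to 11 adaptors, 37 to 53 related genes and 2796 to 3778 of all genes (1384 to 1815 higher, 1404 to 1963 lower); 18 came without siGLUT2 replicate 2. At an adjusted p below 0.01, all genes changed numbered 2264 (1097 higher, 1167 lower). Against a minimum change of 1.2-fold they numbered 2305 (1107 higher), with 28 related genes. With the replicate block over the 6 libraries that share numbers 11 members and 2635 genes were called, and without the block in those 6, a fit chosen after seeing the data, 11 and 2834. Same-numbered libraries showed little correlation in their deviations over all tested genes (0.00953, 0.0152 and -0.00323 for numbers 2, 3 and 4). The numbers are therefore not read as pairs, and a shared batch was not tested. The low-count filter left SLC2A2 out of 6 alternatives. Depth limits ITGB4, ITGA2, ITGA4, ITGA7 and ITGA10, at few counts per library.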
